A study of Homo sapiens with 12 samples.

Results

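The genes that build, load and regulate the antigen-presenting molecules of the major histocompatibility complex (MHC) were followed in 2 diffuse large B-cell lymphoma (DLBCL) cell lines exposed to anti-CD20 antibodies. The 36 genes were chosen by name, each as the row of the count table whose identifier belongs to a listed gene on a primary chromosome, out of 58884 genes in the table. They comprised 5 class I chains, 6 genes of class I peptide supply and loading, 3 immunoproteasome subunits, 7 class II chains, 6 genes of class II loading, 5 transcriptional regulators, 2 CD1 genes and 2 costimulators. Of these, 20 lie on chromosome 6, within the MHC, from HLA-F at chr6:29722775-29738528 to TAPBP at chr6:33299694-33314387 (GRCh38).

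MHC class I molecules display peptides cut by the proteasome, carried into the endoplasmic reticulum by the TAP transporter and trimmed there, and they are read by cytotoxic T cells. MHC class II molecules of B cells and other professional antigen-presenting cells display peptides from the endosomal pathway to helper T cells. Transcription of class II genes rests on the RFX complex (RFX5, RFXAP and RFXANK), which binds the X box of their promoters beside NF-Y on the Y box, and on the coactivator CIITA that docks on this assembly, whereas NLRC5 is the related coactivator of class I genes. Loss of MHC display is a recurrent feature of DLBCL.

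RNA was sequenced from U2932 and TMD8, both established DLBCL lines labelled wild type, after 4 h with 20 µg/mL of rituximab (R), ofatumumab (OF) or a human IgG1 isotype control antibody. R and OF bind different parts of CD20, and the isotype-treated cells served as the control for both. Each line was split into cultures that were kept apart for a week before treatment, so each of the 6 conditions had 2 libraries, and the spread between libraries is that of cultures of 1 line rather than of donors. The labels describe no immune effector cells beside the lymphoma cells. Libraries held 15440226 to 27110612 counts, of which the 36 genes took 0.344% to 0.485%.

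The libraries had the transcripts of B cells. Of 6 B-cell markers, 0 were at zero in every library of either line, and their summed level was 1967 to 3133 CPM (counts scaled by TMM to a common library size) in U2932 and 2317 to 3500 CPM in TMD8. MS4A1, which encodes CD20, was at 899 to 1755 CPM in U2932 and 891 to 2255 CPM in TMD8. Summed T-cell markers did not exceed 1.27 CPM in U2932 and 2.41 CPM in TMD8, and NK-cell markers stayed at or under 0.564 and 0.132 CPM. Myeloid and dendritic markers summed to 0.550 to 1.30 CPM in U2932 and to 9.82 to 22.4 CPM in TMD8, where ITGAX made up 9.21 to 22.3 CPM, and plasma-cell markers to 593 to 715 CPM in U2932 and to at most 64.8 CPM in TMD8. In TMD8, replicate 2 of OF and replicate 2 of isotype stood apart: chi-square per degree of freedom between replicates was 62.2 for OF and 106 for isotype, against 2.42 to 10.8 in the other 4 conditions, and ribosomal-protein genes took 7.16% and 6.50% of their counts where the other TMD8 libraries gave 10.0% to 10.8%. In U2932, ribosomal-protein genes took 4.44% to 4.74% of counts under isotype and 6.03% to 6.56% under R or OF. What these differences contribute to the results below was not tested, and values without those 2 TMD8 libraries are given beside the comparisons that use them.

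Some of the genes could not be measured. TAP2, the partner of TAP1 in the peptide transporter, had 0 counts in all 12 libraries, and 32.3% of its exon bases lie under a second annotated gene that was also at 0. HLA-DQA1 had 0 to 3 counts and HLA-DQB1 0 to 2 counts per library, at or under the 3 counts that a library at 0 allows. After the filter on low counts, 33 of the 36 genes were tested in U2932 and in the fit of all 12 libraries, and 32 in TMD8, where HLA-DOB had 3 to 8 counts. Counts of genes that share sequence or overlap another gene are uncertain: 40.2% of the exon bases of IFI30 and 34.8% of those of PSMB10 lie under another gene, as do 24.9% of CD80 and 23.4% of CIITA, and HLA-DRB1 and HLA-DRB5 share sequence with each other.

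Levels under isotype were compared between genes per length, as TPM (counts over the length of the longest transcript, scaled to a common total). The invariant chain CD74, which chaperones class II molecules, was the most abundant of the 36 in both lines, at 1587 TPM in U2932 and 2759 TPM in TMD8 (means of 2 libraries). B2M, the light chain shared by class I molecules, followed at 922 and 1056 TPM, then the class II α chains HLA-DRA at 516 and 320.0 TPM and HLA-DPA1 at 347 and 192 TPM. The β chains were lower than their α partners, with HLA-DRB1 at 32.1 and 32.6 TPM and HLA-DPB1 at 47.3 and 36.6 TPM, and the ratio of HLA-DRA to HLA-DRB1 was 16.1 in U2932 and 9.80 in TMD8. This order depended on the length used: with the union of exons, CD74 was still highest (1243 and 2276 TPM), but HLA-DRA (745 and 488 TPM) was above B2M (374 and 452 TPM), and HLA-DPA1 (148 and 86.6 TPM) was below HLA-B (169 and 101 TPM). HLA-DR and HLA-DP were thus the class II isotypes with counts, while both HLA-DQ chains were under 1 TPM. HLA-DRB1 shares 9.9% of its stretches of 50 bases with other genes and HLA-DRA 0%. What this and the HLA types of the lines contribute to the ratio of HLA-DRA to HLA-DRB1 was not tested. In all, 9 of the 36 genes reached 100 TPM in U2932 and 8 in TMD8, or 7 in each line when length was taken as the union of exons, and 4 were under 1 TPM in each line. The regulators ranged widely, with CIITA at 15.6 and 12.6 TPM, RFX5 at 63.9 and 47.9 TPM and RFXANK at 124 and 107 TPM. The longest CIITA transcript has 16059 bases, against 3576 for RFX5. Before length was taken into account, CIITA was at 99.4 and 78.0 CPM and RFX5 at 90.5 and 69.3 CPM (means under isotype).

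**Figure D1:**
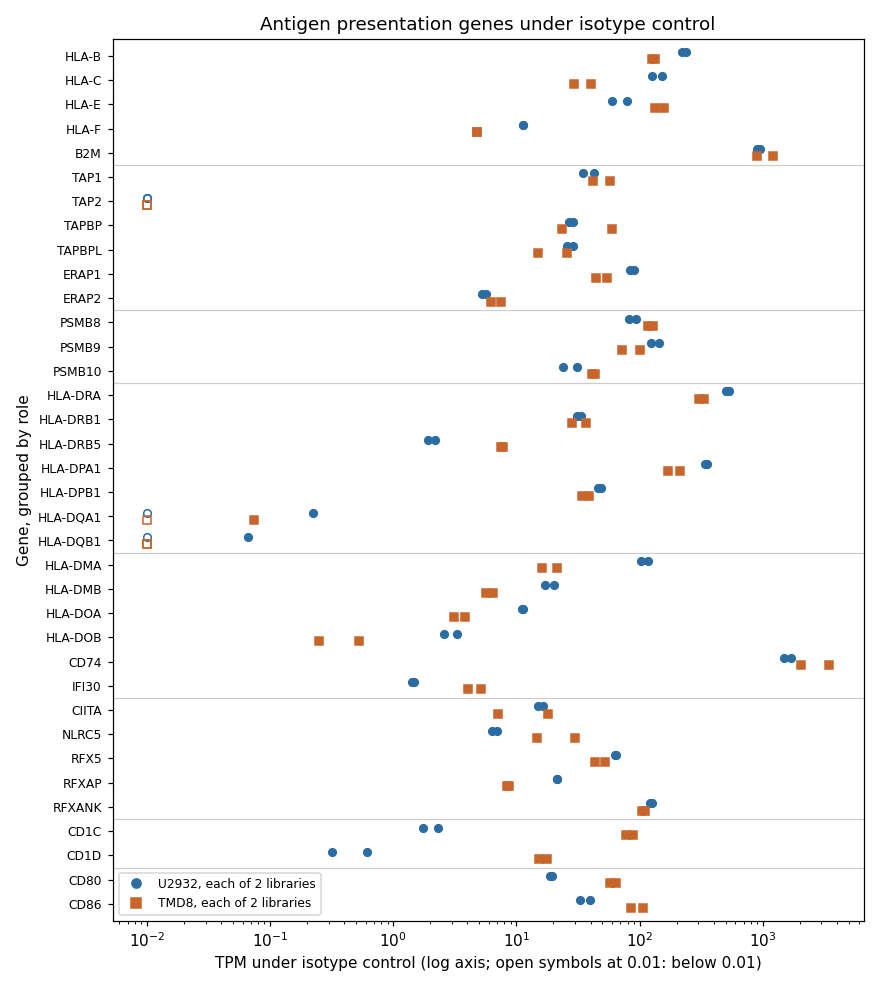
Level of the 36 antigen presentation genes under isotype in TPM on a log axis, grouped by role, with each of the 2 libraries per line as a point and values under 0.01 TPM drawn open at 0.01. CD74 is highest in both lines, TAP2 and the HLA-DQ chains are lowest, and CD1C and CD1D differ most between the lines.

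The lines differed in this repertoire before anti-CD20 was added. Under isotype, 26 of 33 genes differed between U2932 and TMD8, 12 higher and 14 lower in U2932, where 66.8% of all genes tested differed, 33.2% higher and 33.7% lower (edgeR quasi-likelihood test, Benjamini-Hochberg adjusted p-value under 0.10, here and throughout). As these are bulk samples, fewer cells of a state and less RNA per cell cannot be told apart. The lipid-presenting CD1 genes were far apart. CD1C was at 0.986 and 1.33 CPM in the U2932 libraries and at 58.5 and 39.5 CPM in those of TMD8, 46.1-fold lower in U2932 (log2 −5.53 ± 0.28 SE, adjusted p = 2.74e-08). CD1D, which presents lipids to NKT cells, was at 0.282 and 0.550 CPM in U2932 and 16.0 and 14.2 CPM in TMD8, 39.2-fold lower (adjusted p = 1.48e-08). The costimulators CD80 and CD86, ligands of CD28 and CTLA-4, were also lower in U2932, by 3.65-fold and 3.05-fold.

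In class II loading the order of the lines was mixed. HLA-DM, the exchanger that replaces the CLIP fragment of CD74 by peptide, was higher in U2932, with its α chain HLA-DMA at 46.0 and 52.5 CPM against 11.1 and 6.49 CPM in TMD8 (log2 2.36 ± 0.23, adjusted p = 4.98e-06) and its β chain HLA-DMB higher by 1.44 on the log2 scale. Both chains of HLA-DO, which restrains HLA-DM, were higher in U2932 as well, HLA-DOA by 1.52 and HLA-DOB by 2.71 on the log2 scale. CD74 was lower in U2932, at 1151 and 1022 CPM against 1637 and 2137 CPM (log2 −0.94 ± 0.16, adjusted p = 0.000378), and so was the thiol reductase IFI30 (log2 −1.85). Among class II chains, HLA-DRA and HLA-DPA1 were higher in U2932 by 0.49 and 0.65 on the log2 scale, HLA-DRB5 was lower (log2 −2.07), and HLA-DRB1 (log2 −0.19, adjusted p = 0.29) and HLA-DPB1 (log2 0.18, adjusted p = 0.469) did not pass the test. HLA-DRB5 had 23 and 21 counts under isotype in U2932 and 80 and 105 in TMD8. What reads of HLA-DRB1 contribute to these counts was not tested.

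Class I genes did not move as a block between the lines. HLA-C was at 94.2 and 77.8 CPM in U2932 and 21.1 and 22.2 CPM in TMD8 (log2 1.85 ± 0.13, adjusted p = 4.31e-07), and HLA-B and HLA-F were higher in U2932 by 0.64 and 1.08. HLA-E, which presents leader peptides to NK-cell receptors, was lower in U2932 (log2 −1.23), as were the transporter subunit TAP1 (log2 −0.53), the loading factor TAPBP (log2 −0.70), and the immunoproteasome subunits PSMB8 (log2 −0.68) and PSMB10 (log2 −0.81). The trimming peptidases went opposite ways, with ERAP1 higher (log2 0.64) and ERAP2 lower (log2 −0.49). NLRC5 was lower in U2932, at 18.8 and 17.2 CPM against 46.7 and 73.4 CPM (log2 −1.88 ± 0.23, adjusted p = 3.24e-05). CIITA did not differ by the test (log2 0.20, adjusted p = 0.546), with 104 and 94.9 CPM in U2932 and 53.3 and 103 CPM in TMD8. Without the 2 TMD8 libraries that stood apart its log2 difference was 0.77. A single library, at 53.3 CPM, then stood for TMD8 isotype, so the spread of that group was not measured. RFXAP was higher in U2932 (log2 1.13), RFX5 slightly so (log2 0.25, adjusted p = 0.0615), and RFXANK did not pass the test (log2 0.02, adjusted p = 0.902).

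Of the 26 differences, 21 remained called without each library in turn, and TAPBP, ERAP2, HLA-DRA, HLA-DPA1 and RFX5 did not. TAPBP gave a log2 difference of −0.11 (adjusted p = 0.746) without TMD8 isotype replicate 2, where its level was 80.7 CPM against 40.9 CPM in replicate 1, and HLA-DPA1 and HLA-DRA gave 0.35 and 0.26 without that library (adjusted p = 0.152 and 0.286). B2M, which was not called (log2 −0.41, adjusted p = 0.176), ran from −0.75 to 0.039 when either TMD8 isotype library was left out. Without the 2 TMD8 libraries that stood apart, a single library was left for TMD8 isotype, so only the size of a difference is given. The log2 difference was then −0.11 for TAPBP, 0.21 for RFX5, −0.75 for B2M, 0.52 for TAPBPL and 0.77 for CIITA.

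The promoters were searched for letters of the sequences that the RFX, NF-Y and CREB-family factors bind. RefSeq windows of 300 bases, from 250 before to 50 after the annotated start (GRCh38.p14), matched 32 of the 36 genes with 44 windows. HLA-DRA, HLA-E, CIITA and NLRC5 had no window. Printed next are the 120 bases from −150 to −31 of class II chain, class II loading and class I genes, chosen as examples of an arrangement with X box letters and of one without. Sequences run 5′ to 3′ on the gene's strand, and capitals mark letters that match, on either strand, the X box core AGNAACNG, the X2 box core TGACG, or the CCAAT-type letters ATTGG, extended to CTGATTGG where the longer Y box is present.
HLA-DRB1, chr6:32589879-32589998, strand −: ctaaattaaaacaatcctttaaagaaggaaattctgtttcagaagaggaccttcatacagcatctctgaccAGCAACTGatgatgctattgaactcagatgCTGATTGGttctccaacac
HLA-DRB5, chr6:32530318-32530437, strand −: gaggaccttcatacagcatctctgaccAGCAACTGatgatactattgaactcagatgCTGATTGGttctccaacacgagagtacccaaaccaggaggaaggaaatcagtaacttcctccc
HLA-DQA1, chr6:32637256-32637375, strand +: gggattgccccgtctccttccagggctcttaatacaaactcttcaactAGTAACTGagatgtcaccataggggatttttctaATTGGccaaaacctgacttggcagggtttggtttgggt
HLA-DOA, chr6:33009622-33009741, strand −: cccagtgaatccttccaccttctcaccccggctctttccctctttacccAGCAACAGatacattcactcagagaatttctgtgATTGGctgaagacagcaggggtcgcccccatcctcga
HLA-DMB, chr6:32941059-32941178, strand −: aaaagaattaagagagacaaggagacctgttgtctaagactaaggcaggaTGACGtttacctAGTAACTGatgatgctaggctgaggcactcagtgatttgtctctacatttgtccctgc
HLA-B, chr6:31357210-31357329, strand −: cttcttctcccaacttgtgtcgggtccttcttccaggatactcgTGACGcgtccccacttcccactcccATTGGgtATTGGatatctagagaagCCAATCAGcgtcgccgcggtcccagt
HLA-C, chr6:31272123-31272242, strand −: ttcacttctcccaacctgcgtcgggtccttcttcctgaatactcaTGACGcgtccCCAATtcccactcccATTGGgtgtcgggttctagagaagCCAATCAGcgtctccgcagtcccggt
B2M, chr15:44711367-44711486, strand +: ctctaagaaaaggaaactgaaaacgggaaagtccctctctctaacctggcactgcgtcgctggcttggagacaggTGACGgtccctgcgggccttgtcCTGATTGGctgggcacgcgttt
In HLA-DRB1, HLA-DRB5, HLA-DQA1 and HLA-DOA the X box letters stood upstream of CCAAT-type letters at 33, 33, 34 and 34 bases from start to start. HLA-DMB showed an X box preceded by X2 letters. HLA-B, HLA-C and B2M showed X2 letters and a Y box but no AGNAACNG. HLA-DQA1, with 0 to 3 counts per library, had the same arrangement.

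Over the whole set of windows, searched on both strands, CTGATTGG was present in 3.97% of 35116 promoters and in 9 of the 44 windows of these genes. AGNAACNG was in 15.6% of all promoters and 19 of the 44, ATTGG (which every CTGATTGG contains) in 34.6% and 20, TGACG in 24.6% and 16, the interferon-type letters (GAAA, any 2 bases, GAAA) in 3.57% and 10, and the NF-κB-type letters (GGG, any 2 bases, TTTCC) in 1.91% and 6. By role, 4 of 4 class I chains with a window held CTGATTGG and 0 of 4 held AGNAACNG. Of 6 class II chains with a window, 4 held AGNAACNG and 5 ATTGG, and of 6 class II loading genes 3 and 6, with 3 of 6 in each list holding both. Over all 32 genes with a window, 16 held AGNAACNG, 20 held ATTGG and 10 held both, counting any window of the gene. The interferon-type letters were in 5 of the 6 class I loading genes and 2 of the 3 immunoproteasome genes, and in 0 of the 12 class II chain and loading genes. These matches describe letters in a window and not binding in these cells.

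**Figure D2:**
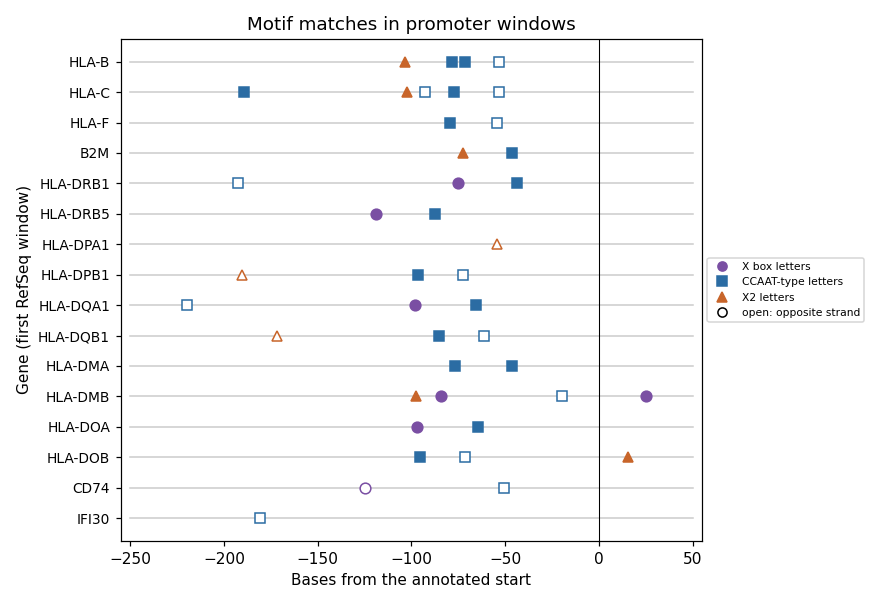
Position of X box, X2 box and CCAAT-type letters, in bases from the annotated start, in the first RefSeq window of 16 of the genes, with open symbols for matches on the opposite strand. HLA-DRB1, HLA-DRB5, HLA-DQA1 and HLA-DOA carry X box letters upstream of CCAAT-type letters, while HLA-B, HLA-C and B2M carry X2 and CCAAT-type letters without X box letters.

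In U2932, 4 h of either antibody came with higher transcript levels of most class II genes tested, of RFX5, CIITA and NLRC5, and of part of the class I pathway. R changed 19 of 33 genes against isotype, 18 higher and 1 lower, where 34.2% of all genes tested were called (16.8% higher and 17.4% lower). OF changed 17 of 33 genes, 17 higher and 0 lower, where 36.4% of all genes were called (18.7% higher and 17.8% lower). At least 1.5-fold changes were few, 4 genes with R and 4 with OF, against backgrounds of 10.2% and 11.1%. The median change of the 33 genes was 0.36 with R and 0.25 with OF on the log2 scale, against −0.02 and 0.01 over all genes. Both comparisons share the 2 isotype libraries and are not independent of each other. B-cell markers moved alongside: their summed level was 1967 to 1981 CPM under isotype, 2939.7 to 3133 CPM under R and 2933 to 2963 CPM under OF, with 4 of 6 higher and 1 lower with R and 3 higher with OF. MS4A1, the antibodies' own target, rose by 0.77 with R and 0.67 with OF on the log2 scale. T-cell, NK-cell and myeloid markers stayed near 0 in every U2932 library. Plasma-cell markers summed to 662 to 715 CPM under isotype and 593 to 684 CPM under the antibodies. With R, SDC1 and XBP1 were called lower (log2 −0.47 and −0.22) and TNFRSF17 higher (log2 0.23). With OF, only XBP1 of these was called, lower by 0.28. The part of these marker shifts and of the ribosomal-protein share in the results was not tested.

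**Figure D3:**
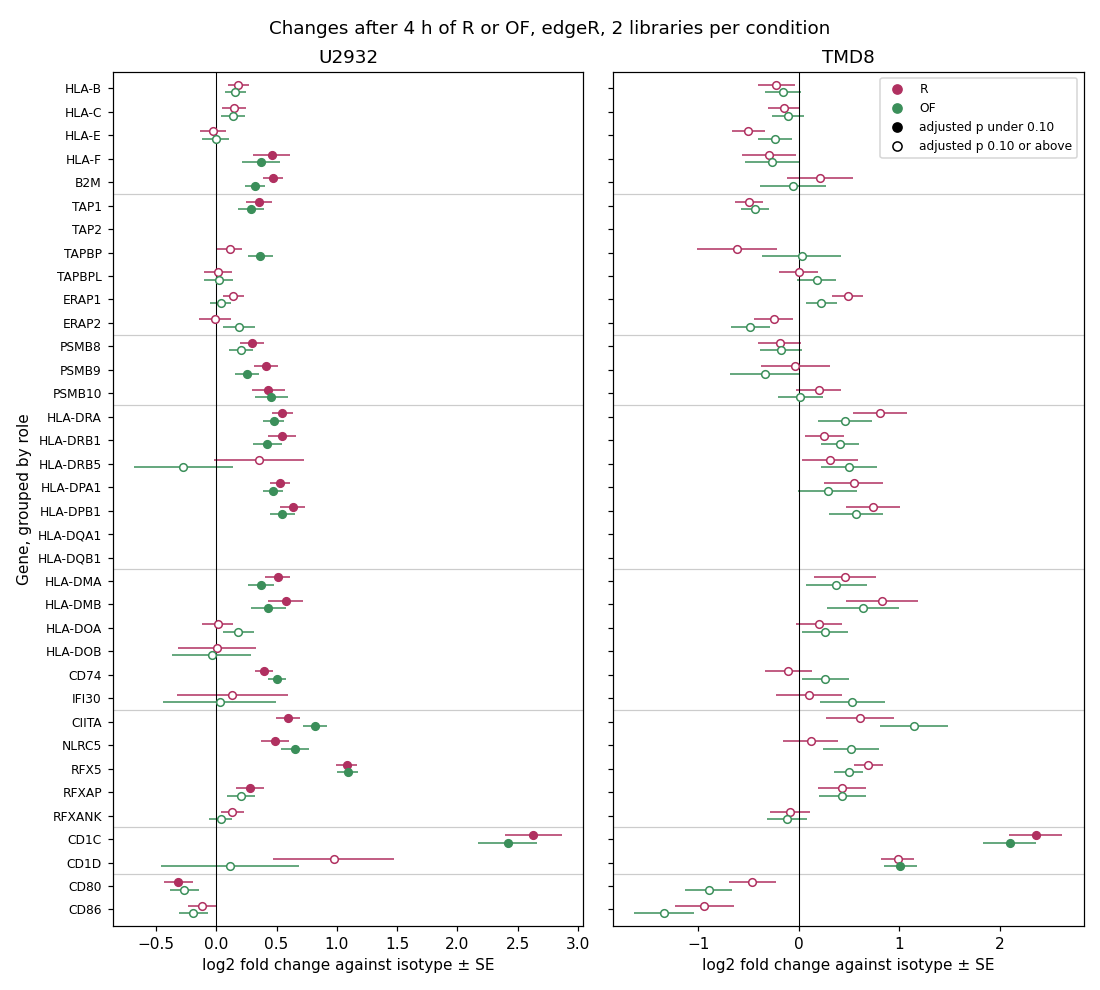
Log2 fold change against isotype (± SE) of each tested gene with R and with OF, in a panel for each line, where filled symbols have an adjusted p-value under 0.10. Most symbols of U2932 lie above 0 and many are filled, whereas those of TMD8 have wider errors and only CD1C and CD1D are filled.

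Of the 5 regulators, 4 rose with R and 3 with OF. RFX5, the DNA-binding subunit of the RFX complex (chr1:151340640-151347357), was at 90.7 and 90.4 CPM under isotype, 192 and 192 CPM under R and 191 and 195 CPM under OF. The groups were well apart, and RFX5 rose 2.12-fold with R (log2 1.08 ± 0.09 SE, adjusted p = 1.33e-09) and 2.13-fold with OF (log2 1.09 ± 0.09, adjusted p = 1.16e-09). CIITA (chr16:10866222-10943021) was at 104 and 94.9 CPM under isotype, 168 and 133 CPM under R and 176 and 175 CPM under OF. It rose 1.51-fold with R (log2 0.60 ± 0.10, adjusted p = 7.18e-05) and 1.76-fold with OF (log2 0.82 ± 0.10, adjusted p = 1.07e-06). NLRC5 was at 18.8 and 17.2 CPM under isotype, 26.4 and 24.0 CPM under R and 27.0 and 29.5 CPM under OF, a rise of 1.40-fold and 1.57-fold with adjusted p-values of 0.00249 and 0.000127. The other RFX subunits moved less. RFXAP rose with R (log2 0.28, adjusted p = 0.071), but not by the test with OF (log2 0.21, adjusted p = 0.186), and RFXANK gave 0.13 and 0.04 (adjusted p = 0.316 and 0.806).

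Of the 5 class II chains tested, 4 rose with each antibody. HLA-DRA (chr6:32439842-32445046) was at 253 and 270.4 CPM under isotype, 358 and 406 CPM under R and 358 and 369 CPM under OF (log2 0.55 ± 0.09, adjusted p = 3.05e-05, and 0.48 ± 0.09, adjusted p = 0.000163). HLA-DPA1 was at 230.4 and 238 CPM, 324 and 352 CPM, and 316 and 334 CPM in the same order (log2 0.53 and 0.47). The β chains rose alongside: HLA-DRB1 from 15.0 and 16.2 CPM to 22.9 and 22.8 CPM with R and 21.0 and 21.0 CPM with OF, and HLA-DPB1 from 28.5 and 30.0 CPM to 45.3 and 45.5 CPM and to 42.1 and 43.5 CPM. Treated and isotype libraries did not overlap for any of these 4 chains. With 2 libraries per condition this is no test, and the share of all genes without overlap was not counted. HLA-DRB5, at 0.709 to 1.55 CPM over the 6 libraries, overlapped between groups and did not pass the test (log2 0.36 and −0.27, adjusted p = 0.524 and 0.666).

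In class II loading, 3 of 6 genes rose with each antibody. CD74 (chr5:150401637-150412929) was at 1151 and 1022 CPM under isotype, 1426 and 1432 CPM under R and 1541 and 1543 CPM under OF (log2 0.40 ± 0.08, adjusted p = 0.000331, and 0.51 ± 0.08, adjusted p = 1.96e-05). HLA-DMA was at 46.0 and 52.5 CPM under isotype, 63.9 and 76.2 CPM under R and 65.8 and 61.5 CPM under OF (log2 0.51 and 0.37, adjusted p = 0.000628 and 0.00941), and HLA-DMB rose by 0.57 and 0.43 (adjusted p = 0.00315 and 0.0245). The HLA-DO chains, the modulators of HLA-DM, did not pass the test: HLA-DOA gave 0.01 with R and 0.18 with OF (adjusted p = 0.956 and 0.31), and HLA-DOB, at 1.24 to 2.03 CPM, gave 0.01 and −0.04. IFI30, under 1 CPM in each U2932 library, gave 0.13 and 0.03.

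The class I pathway responded unevenly. Of the 5 class I chains, 2 rose with each antibody. B2M (chr15:44711487-44718877) was at 608 and 639 CPM under isotype, 797 and 932 CPM under R and 773 and 785 CPM under OF (log2 0.47 ± 0.08, adjusted p = 0.000116, and 0.32 ± 0.08, adjusted p = 0.00462), and HLA-F rose by 0.46 and 0.37 (adjusted p = 0.0263 and 0.0759). The heavy chains that present most peptides to T cells showed smaller differences. HLA-B was at 146 and 137 CPM under isotype, 159 and 161 CPM under R and 157 and 158 CPM under OF, so its libraries did not overlap but the difference missed the limit (log2 0.18 and 0.16, adjusted p = 0.126 and 0.185; 0.0996 for R with the replicate block). HLA-C (log2 0.14 with each) and HLA-E (log2 −0.03 and −0.00) overlapped between groups.

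The 3 catalytic subunits of the immunoproteasome were called with R: PSMB8 rose by 0.30, PSMB9 by 0.41 and PSMB10 by 0.43 on the log2 scale (adjusted p = 0.0268, 0.00296 and 0.019). With OF, PSMB9 (log2 0.25, adjusted p = 0.0616) and PSMB10 (log2 0.46, adjusted p = 0.0127) rose, while PSMB8 gave 0.21 (adjusted p = 0.125, and 0.0971 with the replicate block). Of 5 class I loading genes tested, TAP1 was called with R (40.5 to 50.4 CPM under isotype, 54.3 to 61.9 CPM under R, log2 0.35, adjusted p = 0.0167) and TAP1 and TAPBP with OF (log2 0.29 and 0.37, adjusted p = 0.0491 and 0.00773). TAPBP with R gave 0.11 (adjusted p = 0.459). TAPBPL, ERAP1 and ERAP2 were not called with either antibody, with log2 differences from −0.01 to 0.19.

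CD1C had the largest change of the 33 genes tested. It was at 0.986 and 1.33 CPM under isotype, 6.72 and 7.68 CPM under R and 5.46 and 6.97 CPM under OF, which is 6.19-fold (log2 2.63 ± 0.24, adjusted p = 7.55e-09) and 5.34-fold higher (log2 2.42 ± 0.24, adjusted p = 5.1e-08). Its level in treated U2932 stayed under that of isotype-treated TMD8, where the 2 libraries were at 58.5 and 39.5 CPM. CD1D was under 1 CPM in each U2932 library and did not pass the test (log2 0.98 with R, adjusted p = 0.16, and 0.11 with OF). The costimulators had log2 differences below 0. CD80 was at 20.1 and 21.3 CPM under isotype, 15.5 and 17.7 CPM under R and 16.3 and 18.1 CPM under OF, and fell with R by 0.31 on the log2 scale (adjusted p = 0.0566). With OF the difference was −0.26 (adjusted p = 0.11, and 0.0831 with the replicate block), and CD86 overlapped between groups (log2 −0.12 and −0.19).

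**Figure D4:**
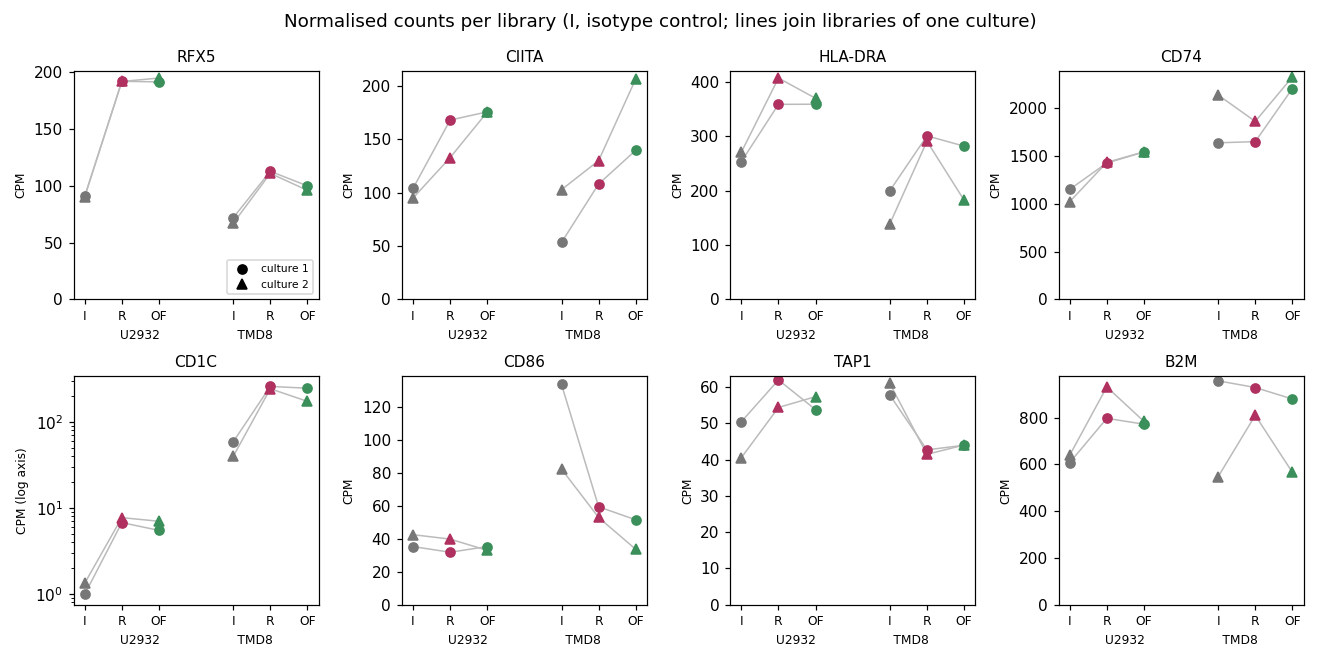
CPM in each of the 12 libraries for 8 of the genes, on a log axis for CD1C, with lines joining libraries of the same culture. RFX5, HLA-DRA and CD1C of U2932 separate from isotype in both cultures, and in TMD8 the cultures differ in CIITA and HLA-DRA under both isotype and OF.

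With the replicate block, 20 genes were called with R and 19 with OF in U2932, where 37.1% and 39.5% of all genes were. When all 12 libraries were fitted together, with 1 estimate of spread and 16187 genes tested in place of 14635, 3 of 33 genes were called with R (HLA-DRB1, RFX5 and CD1C, where 7.46% of all genes were) and 2 with OF (RFX5 and CD1C, where 8.69% were). Without each library in turn, 12 of the 19 calls with R and 10 of the 17 with OF were kept. Those lost in at least 1 case were HLA-F, TAP1, PSMB8, PSMB10, HLA-DMB, RFXAP and CD80 with R, and HLA-F, TAP1, TAPBP, PSMB9, PSMB10, HLA-DMA and HLA-DMB with OF. Leaving out isotype replicate 2 moved TAP1 to 0.21 with R and 0.14 with OF (adjusted p = 0.159 and 0.365), and leaving out OF replicate 2 moved HLA-F to 0.19 with OF (adjusted p = 0.608). Scaling by library size in place of TMM shifted the median of all genes to −0.12 with R, with 1708 genes higher and 3709 lower in place of 2460 and 2545, and left 15 genes of the 33 higher and 1 lower. With OF that scaling gave 1968 higher and 3484 lower in place of 2736 and 2598, and 14 of the 33 higher and 1 lower.

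In TMD8 the same comparisons had wider errors. Against isotype, 1 of 32 genes was called with R and 2 with OF, where 0.647% and 0.815% of all genes were called. Summed B-cell markers were at 2317 to 2341 CPM under isotype, 3254 to 3500.1 CPM under R and 3003 to 3306 CPM under OF. Summed plasma-cell markers were at up to 45.8 CPM under isotype and 47.2 to 64.8 CPM under the antibodies. The 3 plasma-cell genes differed in sign. With R and OF, XBP1 gave log2 1.23 and 1.11, SDC1 0.62 and 1.11, and TNFRSF17 −0.40 and −0.73. By the test 0 of the B-cell and plasma-cell markers were called, and their part in the results was not tested. CD1C was at 58.5 and 39.5 CPM under isotype, 258 and 242 CPM under R and 246 and 173 CPM under OF, and rose 5.11-fold with R (log2 2.35 ± 0.27, adjusted p = 0.0697) and 4.28-fold with OF (log2 2.10 ± 0.26, adjusted p = 0.0851). CD1D was at 16.0 and 14.2 CPM under isotype, 30.6 and 29.1 CPM under R and 32.8 and 28.0 CPM under OF. It rose 2.01-fold with OF (log2 1.01 ± 0.17, adjusted p = 0.095) and missed the limit with R (log2 0.98 ± 0.17, adjusted p = 0.101), where the replicate block described next called it (log2 0.98, adjusted p = 0.00562). For both CD1 genes the treated libraries lay above those of isotype. The call of CD1C with R was lost without either R library (adjusted p = 0.894 and 0.647), that of CD1C with OF without either library of R or OF (adjusted p = 0.187 to 0.376), and that of CD1D with OF in these cases and without isotype replicate 1 (adjusted p = 0.121 to 0.376), while the log2 values remained between 0.89 and 2.41.

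The replicate block compares antibodies within a replicate number taken as a culture, and it takes the shift between cultures as shared across antibodies. In TMD8, deviations of same-numbered libraries from group means correlated by 0.687 for OF and isotype but by 0.227 for R and isotype. With the block, 12 of 32 genes were called with R, 8 higher and 4 lower. Of all genes 17.7% were called (8.99% higher and 8.73% lower). With OF, 8 of 32 were called, 5 higher and 3 lower, where 14.3% of all genes were (7.45% higher and 6.87% lower). RFX5 was at 71.7 and 66.9 CPM under isotype, 113 and 111 CPM under R and 99.8 and 95.8 CPM under OF. Treated and isotype libraries did not overlap, and its log2 difference was 0.69 with R (adjusted p = 0.119, and 0.0132 with the block) and 0.50 with OF (0.204, and 0.0423 with the block). CIITA was at 53.3 and 103 CPM under isotype, 108 and 129.9 CPM under R and 139.6 and 206 CPM under OF, with replicate 2 the higher in each condition. Its log2 difference was 0.61 with R (adjusted p = 0.429, and 0.67 with adjusted p = 0.0424 with the block) and 1.15 with OF (adjusted p = 0.208, and 1.18 with adjusted p = 0.00794 with the block). NLRC5 was called with OF only under the block (log2 0.52, adjusted p = 0.0762).

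Among the class II chains of TMD8, HLA-DRA was at 199.5 and 139 CPM under isotype, 300.3 and 290.4 CPM under R and 281 and 182 CPM under OF. The R libraries lay above those of isotype and the OF libraries overlapped with them, since replicate 2 of OF was under replicate 1 of isotype. With R, the block gave 0.84 for HLA-DRA (adjusted p = 0.0194, against 0.228 without it), 0.59 for HLA-DPA1 (0.0569 against 0.414) and 0.77 for HLA-DPB1 (0.0400 against 0.260). With OF none of the class II chains was called in either fit, and HLA-DRA gave 0.46 (adjusted p = 0.506). CD74, at 1637 and 2137 CPM under isotype, 1649.7 and 1861 CPM under R and 2204 and 2325 CPM under OF, was not called in either fit (log2 −0.10 with R and 0.26 with OF).

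Some class I genes and the costimulators of TMD8 had lower values with the antibodies. TAP1 was at 57.8 and 60.9 CPM under isotype, 42.7 and 41.4 CPM under R and 43.9 and 44.0 CPM under OF, without overlap (log2 −0.50, adjusted p = 0.176, and −0.43, adjusted p = 0.247). These became adjusted p-values of 0.0395 and 0.0653 with the block. HLA-E gave −0.50 with R (adjusted p = 0.229, and 0.0524 with the block), and ERAP1 gave 0.48 (0.213, and 0.0451 with the block). CD86 was at 134 and 82.2 CPM under isotype, 59.3 and 52.9 CPM under R and 51.4 and 33.6 CPM under OF, with each treated library under both of isotype. Its log2 difference was −0.94 with R (adjusted p = 0.204, and 0.0122 with the block) and −1.34 with OF (0.142, and 0.00493 with the block). CD80, at 81.4 and 56.1 CPM under isotype, 55.3 and 44.4 CPM under R and 40.2 and 33.6 CPM under OF, gave −0.46 (0.381, and 0.0623 with the block) and −0.90 (0.168, and 0.00919 with the block).

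Several of these differences depended on which isotype library of TMD8 was used. Without isotype replicate 1 and without isotype replicate 2, CIITA with R gave 0.22 and 1.16 on the log2 scale and with OF 0.76 and 1.70. HLA-DPA1 with R gave 0.95 and 0.24, HLA-DPB1 1.04 and 0.49, and HLA-DRA 1.10 and 0.57. CD80 gave −0.16 and −0.70 with R and −0.60 and −1.14 with OF, and CD86 with R gave −0.55 and −1.25. NLRC5 with OF ranged from 0.20 without OF replicate 2 to 0.89 without isotype replicate 2. RFX5 and TAP1 moved little, from 0.64 to 0.75 and from −0.53 to −0.45 with R, and from 0.45 to 0.56 and from −0.46 to −0.39 with OF, over the libraries left out.

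Without replicate 2 of OF and of isotype, a choice made after the data were seen, 15 of 32 genes were called with R and 15 with OF, where 30.3% and 23.4% of all genes were. The single libraries left for OF and isotype were then assumed to vary like the R pair. With R and OF, which share the isotype library, CD1C gave 2.09 and 2.06 on the log2 scale, CD1D 0.89 and 1.03, RFX5 0.63 and 0.47, CIITA 1.16 and 1.38, and NLRC5 0.48 and 0.55. HLA-DRA gave 0.56 and 0.49 and HLA-DPB1 0.48 and 0.58, while HLA-DPA1 was not called with R (log2 0.23, adjusted p = 0.159). TAP1 gave −0.46 and −0.41, CD80 −0.71 and −1.03, and CD86 −1.26 and −1.39, and with R HLA-E gave −0.58 and ERAP1 0.44. PSMB8 and PSMB9 were lower with R in this subset (log2 −0.44 and −0.41), but the 2 replicates differed in sign: R over isotype was −0.46 and 0.12 for PSMB8 and −0.63 and 0.64 for PSMB9 in replicates 1 and 2, and the block gave −0.17 and 0.04 (adjusted p = 0.512 and 0.942). In the fit of all 12 libraries, 9 genes were called with R and 7 with OF, where 12.3% and 9.93% of all genes were.

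R and OF were not told apart in these genes. Compared directly, 0 of 33 genes differed in U2932 and 0 of 32 in TMD8 by edgeR, where 0.00683% and 0% of all genes did, and DESeq2 also called 0 and 0. At an unadjusted p-value under 0.05 there were 2 in U2932, TAPBP (log2 −0.25) and CIITA (log2 −0.22), where 747 of 14635 genes were. In TMD8 there were 0, where 582 of 14227 genes were. The 95% intervals of R minus OF in U2932 were −0.19 to 0.17 for RFX5, −0.43 to −0.02 for CIITA, −0.18 to 0.61 for CD1C, −0.11 to 0.25 for HLA-DRA, −0.27 to 0.05 for CD74 and −0.02 to 0.32 for B2M on the log2 scale. In TMD8 they were wider, at −1.34 to 0.26 for CIITA, −0.34 to 0.86 for CD1C, −0.29 to 0.98 for HLA-DRA and −0.30 to 1.10 for CD86. Without the 2 TMD8 libraries that stood apart, a choice made after the data were seen, a single OF library was left. R minus OF was then −0.40 for HLA-E and −0.32 for CD74 on the log2 scale, with the spread of OF not measured. Differences of similar size went both ways, with IFI30 at −0.45 and ERAP2 at 0.37.

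Whether the lines responded differently was tested as an interaction, the antibody effect in U2932 minus that in TMD8. In the fit of all 12 libraries 0 of 33 genes were called with R and 0 with OF by edgeR, where 0.321% and 0.105% of all genes were. At an unadjusted p-value under 0.05 there were 6 with each antibody, where 1924 of 16187 genes were with R and 1369 with OF. DESeq2 called 2 with each, but its share over all genes is not given here, so this count is not read as a result. The largest for R was TAP1, whose effect was 0.86 higher in U2932 (adjusted p = 0.125), and for OF it was CD86, at 1.15 (adjusted p = 0.33). With the replicate block, 2 genes were called with R and 4 with OF, where 6.04% and 2.23% of all genes were. Without the 2 TMD8 libraries that stood apart, a single library was left for OF and for isotype of TMD8. The interaction of CIITA was then −0.57 on the log2 scale with each antibody. With all 12 libraries it was 0.0026 with R and −0.32 with OF.

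Genes that work with these 36 were followed from 7 further lists, in which 42 of 53 genes were tested in U2932. With R, 20 of the 42 were called, and 20 with OF, where 34.2% and 36.4% of all genes were. Among partners of the X and Y boxes, NFYC rose with R and OF (log2 0.30 and 0.36) and CREB1 fell (log2 −0.37 and −0.50), with 1 of 5 genes higher and 2 lower each time, the others being NFYB with R (log2 −0.32) and ATF1 with OF (log2 −0.31). Both chains of the PA28 proteasome activator rose, PSME2 from 122 and 123 CPM to 173 and 173 CPM with R and 159 and 164 CPM with OF (log2 0.50 and 0.40), and PSME1 by 0.39 and 0.32, with 2 of 3 genes called. The ER chaperone CALR rose by 0.24 and 0.27, the only 1 of 3 called.

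Of 6 endolysosomal genes tested, 3 rose and 1 fell with R and 2 rose and 1 fell with OF. The cathepsin CTSZ rose from 99.3 and 88.6 CPM to 147 and 148 CPM with R and 160.2 and 164 CPM with OF (log2 0.65 and 0.79), CTSH by 0.44 and 0.36, and SPPL2A, the protease that clears CD74 remnants, fell by 0.34 and 0.41. Interferon and lineage genes went both ways, 3 of 14 higher and 3 lower with R and 4 higher and 2 lower with OF. The acetyltransferase CREBBP was at 74.4 and 67.5 CPM under isotype, 38.8 and 30.1 CPM under R and 42.3 and 41.8 CPM under OF (log2 −1.04 and −0.75), and the B-cell factor IRF8 was at 422 and 385 CPM, 257 and 243 CPM, and 269 and 264 CPM (log2 −0.69 and −0.60). PAX5 fell with R (log2 −0.33) and IRF1 rose with OF (log2 0.44). Of 8 other costimulators and adhesion molecules tested, 4 were higher with R and 5 with OF and 0 were lower, among them CD40 (log2 0.43 and 0.34) and TNFRSF14 (log2 0.69 and 0.64). Of 3 other class I-like and class II genes tested, 0 were called with either antibody by edgeR or DESeq2, with 0 at an unadjusted p-value under 0.05. Over all 14635 genes, 5494 passed that limit with R and 5786 with OF.

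In TMD8, 46 of the 53 genes were tested, and 0 were called with either antibody by edgeR. At an unadjusted p-value under 0.05 there were 14 with R and 12 with OF, where 2265 and 2009 of 14227 genes were. DESeq2 called 5 and 7, but its share over all genes is not given here, so these counts are not read as a result. The replicate block called 15 higher and 3 lower with R and 10 higher and 5 lower with OF, where 17.7% and 14.3% of all genes were called. R and OF differed in 0 of these genes in either line, and in 0 by DESeq2. With an unadjusted p-value under 0.05 there were 1 in U2932 and 3 in TMD8, where 747 of 14635 and 582 of 14227 genes were.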

How the data were processed

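RNA-seq counts of 12 libraries were analysed, 2 for each of 6 conditions, grouped by the labels. The authors trimmed reads with Trim Galore 0.6.0, aligned them with STAR 2.7.0e (GRCh38 is named in the submitters' processing notes) and deposited raw counts per gene, 15440226 to 27110612 per library; annotation release and strand setting are not given in the sources used here. Without the strand setting, overlapping genes on opposite strands cannot be separated, and genes with near-identical copies may lose reads. Intervals for counts of 0 cover counting error only.

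Symbols, positions, GC content and lengths came from GENCODE 29 (58552 of 58884 genes), and promoter windows from RefSeq (GRCh38.p14). The members and lists, including the roles and the further lists, were chosen with earlier results of these data known. All 36 members may be named, and up to 3 called genes of each further list per comparison, those with the smallest adjusted p-value.

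Counts were tested with edgeR 4.0.16 (R 4.3.3, quasi-likelihood, TMM, filterByExpr with a minimum of 10), within each line for antibodies and in all 12 libraries for baseline and interactions, with Benjamini-Hochberg adjustment over all genes and calls at an adjusted p-value under 0.10. The procedure was tested on simulated data. Alternatives were DESeq2 1.42.0, other scalings, filters, limits, GC correction, leaving out libraries, and the replicate number as a block. CPM are TMM-scaled, and TPM use the longest transcript.

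Replicate numbers were taken to mark the cultures kept apart before treatment, which the labels imply without stating it number by number. The block pairs antibodies within a line and cannot pair the lines. Deviations from group means correlated between same-numbered libraries by 0.222 (R and OF), 0.227 (R and isotype) and 0.687 (OF and isotype) in TMD8 and −0.0478, 0.104 and −0.000700 in U2932.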

Additional observations from a re-analysis of the deposited data

Results flagged for a closer look

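The antibody effect differed between the lines for a few genes when the culture was taken as a replicate block in the fit of all 12 libraries, by a test of the difference itself. These were 2 of 33 genes with R, close to the share over all genes (6.04%), and 4 of 33 with OF, where 2.23% of all genes were called. With R, the effect on TAP1 was 0.86 higher in U2932 than in TMD8 on the log2 scale (adjusted p = 0.0195) and that on CD86 was 0.79 higher (adjusted p = 0.0534). With OF, the differences were 0.73 for TAP1 (adjusted p = 0.0533), 0.60 for RFX5 (adjusted p = 0.0651), 0.62 for CD80 (adjusted p = 0.0945) and 1.16 for CD86 (adjusted p = 0.0223). Without the block the adjusted p-values were 0.125 and 0.371 with R and 0.251, 0.23, 0.538 and 0.33 with OF, in the same order. TAP1 lay above isotype in each treated library of U2932 and below it in each treated library of TMD8, while CD86 overlapped in U2932 and was below isotype in TMD8. The R and OF values share the isotype libraries. Without the block, leaving out TMD8 isotype replicate 1 or 2 gave 0.45 or 1.13 for CD86 with R, and CD80 with OF gave 0.36 or 0.87. CD86 with OF ranged from 0.78 to 1.48 over single libraries left out, TAP1 from 0.71 to 1.02 with R and 0.58 to 0.88 with OF, and RFX5 with OF from 0.56 to 0.64. Without both TMD8 libraries that stood apart, also without the block, the values were 0.81 for TAP1 and 1.13 for CD86 with R, and 0.68 for TAP1, 0.61 for RFX5, 0.75 for CD80 and 1.18 for CD86 with OF.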

How the results depend on the processing

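In U2932 the number of genes called, 19 with R and 17 with OF, stayed within 1.5 times under the other scalings, filters, GC correction, DESeq2 and the replicate block (20 with R and 19 with OF). It became 3 and 2 with all 12 libraries in 1 fit, 4 and 4 with a 1.5-fold limit, and 14 to 20 and 12 to 21 without each library in turn. In TMD8 the number with R, 1, became 4 with DESeq2, 6 with no filter, 2 with at least 10 counts in every library, 3 with GC correction, 9 with all 12 libraries, 0 at an adjusted p-value under 0.05 and 0 to 2 without each library. With OF, 2 became 5 with DESeq2, 1 with library size only, 5 with no filter, 4 with GC correction, 7 with all 12 libraries, 0 at 0.05 and 0 to 5 without each library. The replicate block gave 12 and 8 there, and 13 and 10 with GC correction. Leaving out replicate 2 of OF and of isotype gave 15 and 15, and 2 for R against OF. For the interactions, 0 with R became 2 with DESeq2 and 1 with no filter, and 0 with OF became 2 and 1. The replicate block gave 2 and 4, and 2 and 4 with GC correction. The block changed no other call of a single gene in comparisons of antibodies or in the interactions than those given above; between the lines it pairs nothing and is not used. Under isotype 22 to 28 genes differed without each library, and B2M turned from −0.41 to 0.039 without TMD8 isotype replicate 1, in a range of −0.75 to 0.039 without each library. B2M was not called between the lines, and no called member reversed its direction. For R in TMD8, scaling by library size gave 26 genes higher and 40 lower in place of 57 and 35. The share of all genes called moved between settings as well. For R in TMD8 it was 0.647% in the main fit, 12.3% with all 12 libraries and 17.7% with the replicate block. For most other settings it is not given, so these counts are not a result about the 36 genes alone. Why these counts move was not tested.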
